A study of Mus musculus with 64 samples.

Results

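The regions described here are places in the mouse genome where β-catenin was among the strongest peaks of caudal epiblast-like cells (CEpiLCs) but seldom among those of other states. From each of the 12 β-catenin ChIP-seq libraries the 3423 peaks with the highest deposited fold were kept, which is the length of the shortest list, and overlapping peaks, by 1 bp or more, from any library were joined, which gave 12607 sites. Of these, 408 (3.24%) had a peak in 3 of 3 CEpiLC lists and in at most 1 of the 9 other lists, and are called CEpiLC-specific sites. The members were thus chosen by the fold of the β-catenin peaks themselves, so all β-catenin values below describe the choice and carry no test.

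ChIP-seq had been done for β-catenin, SOX2, LEF1, TCF7L1 and TCF7L2 in 4 conditions, with 3 biological replicates (R1 to R3) for each protein and condition. Naive embryonic stem cells (naive ESCs) were cells of the HM1 TetON line, of 129 background, which the study used as wild type. They were held in 2i medium, which contains the WNT agonist CHIR99021 and a MEK inhibitor. CEpiLCs were derived from the same wild-type line with bFGF and LGK974, a block on WNT secretion, followed by addition of CHIR99021 until day 3. SOX2-ON and SOX2-OFF cells passed through the same differentiation but came from a line without endogenous Sox2 that carried a doxycycline-driven Sox2 transgene. SOX2-ON cells received doxycycline at 1 µg/ml and SOX2-OFF cells did not. CEpiLCs therefore differ from both of these in genotype as well as in SOX2, and all 4 conditions contain CHIR99021.

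β-catenin has no DNA-binding domain of its own. In cells that receive a WNT signal it accumulates, enters the nucleus and is brought to chromatin by factors of the TCF and LEF family, of which LEF1 mainly acts as an activator and TCF7L1 mainly as a repressor. Caudal epiblast cells, the progenitors of trunk spinal cord and paraxial mesoderm, respond to WNT and FGF by switching on Cdx and Hox genes, whereas naive ESCs use the same pathway to stay pluripotent. SOX2 is a transcription factor of both the pluripotent and the neural lineage.

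The sequence within 100 bp of the strongest CEpiLC summit is shown for 10 of these sites. They are the strongest site of 5 Hox genes, the strongest of the Meis and Pbx, the Notch and clock, and the FGF gene lists, and the strongest remaining sites regardless of gene. Each is the plus strand of GRCm38, 5′ to 3′, and is named by the nearest protein-coding gene. Capitals mark the TCF sequences CTTTGAA and CTTTGAT and the CDX sequences TTTATTG and TTTATGG on either strand. Stretches without capitals hold neither.
Hoxb4 site 1, chr11:96316402-96316602: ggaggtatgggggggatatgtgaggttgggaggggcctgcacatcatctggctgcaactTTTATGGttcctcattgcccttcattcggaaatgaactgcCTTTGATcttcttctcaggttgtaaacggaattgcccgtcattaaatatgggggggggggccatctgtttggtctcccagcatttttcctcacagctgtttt
Hoxc4, chr15:103042484-103042684: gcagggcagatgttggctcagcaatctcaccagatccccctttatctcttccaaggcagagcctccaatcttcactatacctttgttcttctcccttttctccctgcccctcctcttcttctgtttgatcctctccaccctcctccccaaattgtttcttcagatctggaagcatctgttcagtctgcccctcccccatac
Hoxa4, chr6:52190848-52191048: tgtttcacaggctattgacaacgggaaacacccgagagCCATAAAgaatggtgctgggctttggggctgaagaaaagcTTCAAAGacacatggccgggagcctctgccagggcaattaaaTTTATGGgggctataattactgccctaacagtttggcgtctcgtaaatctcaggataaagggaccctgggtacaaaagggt
Hoxb9, chr11:96271940-96272140: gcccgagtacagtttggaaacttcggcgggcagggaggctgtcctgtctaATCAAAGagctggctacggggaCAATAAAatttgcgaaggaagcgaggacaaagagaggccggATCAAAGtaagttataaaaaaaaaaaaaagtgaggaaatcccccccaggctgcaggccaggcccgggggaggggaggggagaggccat
Hoxb1 site 1, chr11:96370481-96370681: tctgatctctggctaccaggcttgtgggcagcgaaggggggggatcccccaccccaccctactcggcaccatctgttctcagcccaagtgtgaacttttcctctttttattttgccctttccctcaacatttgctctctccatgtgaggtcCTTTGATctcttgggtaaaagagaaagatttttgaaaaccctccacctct
Meis3, chr7:16174113-16174313: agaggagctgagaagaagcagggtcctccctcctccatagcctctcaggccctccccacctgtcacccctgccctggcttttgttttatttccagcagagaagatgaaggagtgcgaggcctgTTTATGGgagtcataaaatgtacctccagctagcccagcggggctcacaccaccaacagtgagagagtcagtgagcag
Hes7, chr11:69118990-69119190: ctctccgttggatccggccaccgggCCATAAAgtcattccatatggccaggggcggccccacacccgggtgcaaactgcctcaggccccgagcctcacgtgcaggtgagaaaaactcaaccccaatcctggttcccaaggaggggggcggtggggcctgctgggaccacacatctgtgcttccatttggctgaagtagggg
Dusp4, chr8:34804332-34804532: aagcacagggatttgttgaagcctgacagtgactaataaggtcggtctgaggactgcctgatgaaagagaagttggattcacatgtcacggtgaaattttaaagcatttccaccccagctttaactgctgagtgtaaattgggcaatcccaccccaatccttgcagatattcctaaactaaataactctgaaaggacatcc
Gm525, chr11:89107546-89107746: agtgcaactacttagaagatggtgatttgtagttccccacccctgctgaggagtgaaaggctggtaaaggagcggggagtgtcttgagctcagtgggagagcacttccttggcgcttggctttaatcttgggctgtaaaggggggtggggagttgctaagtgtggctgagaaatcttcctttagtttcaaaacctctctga
Gtf3a, chr5:146920122-146920322: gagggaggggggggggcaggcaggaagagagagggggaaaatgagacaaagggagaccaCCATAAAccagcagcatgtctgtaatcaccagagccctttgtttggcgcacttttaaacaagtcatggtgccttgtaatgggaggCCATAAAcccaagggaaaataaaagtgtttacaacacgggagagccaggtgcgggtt

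In Hoxb4 site 1 a CTTTGAT was centred 2 bp from the summit, and in Hoxa4 a TTTATGG was centred 23 bp from it. Hoxa4 had 1 TCF and 2 CDX sequences, Hoxb9 had 2 and 1, and Hoxc4 had neither. Of the 9 members next to Hox genes, 7 held a TCF sequence and 5 a CDX sequence, and those 5 held both. The Gtf3a site had 2 CDX sequences and no TCF sequence, and the sites next to Gm525 and Dusp4, which encodes an ERK phosphatase, had neither.

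Of the 408 members, 237 had no peak in any of the 9 other lists and 171 had a peak in 1. That 1 list was a SOX2-OFF list at 134 members, a SOX2-ON list at 26 and a naive ESC list at 11. Just outside the rule, 294 sites had a peak in 3 of 3 CEpiLC and 2 of 9 other lists, and their median fold was 14.9. A further 320 sites had a peak in 2 of 3 CEpiLC and 0 of 9 other lists, with a median fold of 10.5. Inside it, the medians were 11.9 for members with 0 of 9 and 12.9 for members with 1 of 9. The last peak kept had a fold of 9.75, 8.43 and 7.21 in CEpiLC R1, R2 and R3, and of 2.01 to 17.98 over all 12 libraries, so that the same fold could lie within one list and outside another.

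At the median, the CEpiLC-specific sites were weaker than the other β-catenin sites found in 3 of 3 CEpiLC lists. The median fold of the members over the 3 CEpiLC libraries ran from 8.44 to 52.8 with a median of 12.4, whereas the 2161 sites with a peak in 3 of 3 CEpiLC lists had a median of 17.0 and the 332 sites present in all 12 lists one of 29.8. The median ranks of the members were 1860, 1880 and 1842 in CEpiLC R1, R2 and R3. The 3 libraries placed the peak at nearly the same position: the 3 summits spanned a median of 38 bp, and at 272 members no more than 50 bp.

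The word specific holds for the strongest peaks and not for all peaks. When all deposited peaks were considered, SOX2-OFF R1 had a β-catenin peak at 92.4% of the members and R3 at 90.9%, while R2, whose whole list had 3423 peaks, had one at 4.41%. In naive ESCs the shares were 61%, 42.9% and 46.1% in R1, R2 and R3. In SOX2-ON cells they were 67.4%, 29.7% and 64.2%. The same intervals moved by 5000 bp met a peak in 0% to 19.4% of cases in these 9 libraries.

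At the median, the peaks of the other conditions were weaker than those of CEpiLCs. Where present, the median fold was 6.34 to 7.98 in naive ESC R1 and R3 and 5.36 in R2, 5.1 to 6.82 in SOX2-ON cells, and 7.75, 4.64 and 8.49 in SOX2-OFF R1 to R3, compared with 14, 12.4 and 10.5 in the CEpiLC libraries. Single peaks reached 32.7 in naive ESC R1, 27.6 in SOX2-ON R1 and 31.3 in SOX2-OFF R3. Peaks of SOX2-OFF R3 stood at a median rank of 5244 in their list, and those of naive ESC R1 at 12212. At 355 members at least 2 of 3 SOX2-OFF libraries had a peak, against 200 for naive ESCs and 224 for SOX2-ON cells, and 43 members had none in the 6 naive ESC and SOX2-ON libraries. A peak list cannot tell apart fewer bound cells from less binding per cell.

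**Figure D1:**
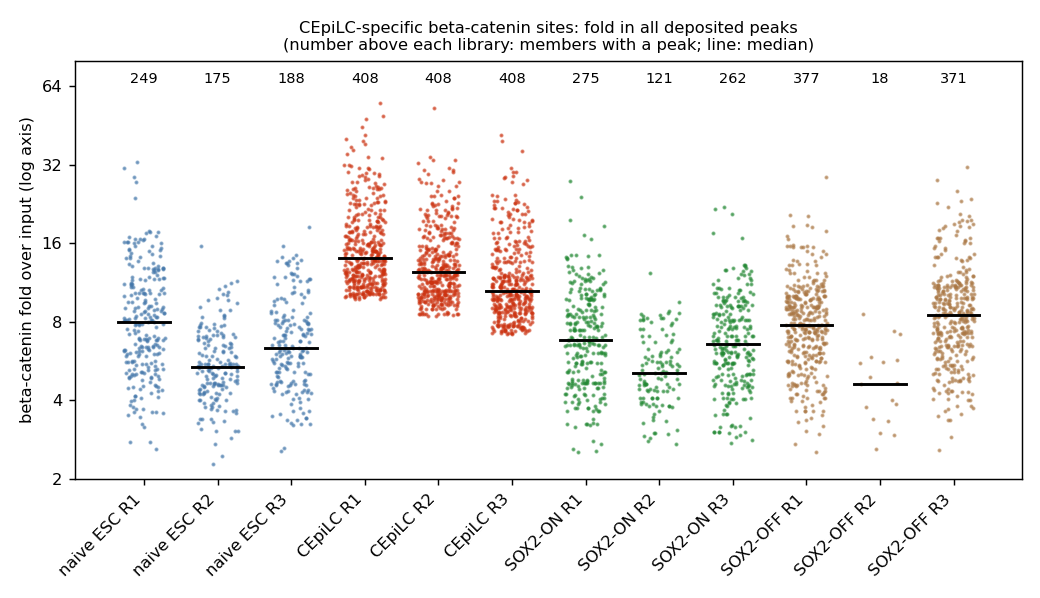
β-catenin fold over input (log axis) of the 408 members in each of the 12 libraries (R1 to R3 per condition), taken from all deposited peaks; each point is 1 member with a peak, the line is the median and the number counts members with a peak. All 408 have a peak in the CEpiLC libraries because the rule required it, and SOX2-OFF R1 and R3, with 377 and 371, come next.

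Only 1 member lacked a β-catenin peak in all 9 other full lists. It lay 290002 bp upstream of Rspo3, which encodes a secreted enhancer of WNT signalling, at chr10:29825652-29826100. Its fold was 24.9, 13.3 and 9.67 in CEpiLC R1, R2 and R3. In the shortened lists of the other proteins, LEF1 had a peak there in 2 of 3 CEpiLC libraries and SOX2 in 1, and 0 libraries of the other conditions had one for either.

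The 12 strongest members by median fold were next to Hoxb4, Gm525, Gtf3a, Sec14l1, Meis3, Mitf, Ugt2b5, Cep112, Snx29, Stard13, Fam114a2 and Tcf20, and 5 of them lay on chromosome 11. Hoxb4 site 1 (chr11:96315808-96317055, between genes, 1765 bp upstream of Hoxb4, ENSMUSG00000038692.8) had a fold of 55.2, 52.8 and 30.1 in CEpiLC R1, R2 and R3. In the full lists it also had 12.9 and 7.13 in naive ESC R1 and R3, 11.4, 4.44 and 2.89 in SOX2-ON R1 to R3, and 4.3 in SOX2-OFF R1. All CEpiLC values lay above these. The site next to Meis3, a cofactor of Hox proteins (chr7:16173928-16174814, 877 bp upstream), had 38.4, 31 and 23.2 in the CEpiLC libraries and otherwise only 2.6 and 4.73 in SOX2-ON R1 and R3. The Gtf3a site (chr5:146919479-146921179, 28435 bp upstream) had 49.1, 32.6 and 23.2 in CEpiLCs, and its highest value elsewhere was 24.2 in SOX2-ON R1, so the groups overlapped there.

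The members were spread over 20 chromosomes, with 48 on chromosome 11. In the basic GENCODE gene models, 227 summits lay between genes, 158 in introns and 23 in exons. More of them were close to genes than was usual for β-catenin sites: 49 (12%) lay within 1 kb of the start of a protein-coding gene, compared with 5.14% of all sites, 2.56% of the 900 sites specific to naive ESCs and 1.9% of the 421 specific to SOX2-ON cells. Sites more than 10 kb from any start made up 66.9% of the members and 76.9% of all sites. With the starts of all transcripts of every gene type this share of members was 49.8%.

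The 408 sites were nearest to 387 protein-coding genes, of which 21 had 2 members and 0 had 3 or more. Gene lists of pathways and lineages were set beside them, and 48 members (11.8%) were nearest to a listed gene, compared with 5.93% of all sites. Hox genes, which set position along the body axis, were nearest to 9 members (2.21%) and to 0.27% of all sites. These 9 were drawn from 34 Hox sites in total, whereas 0 of the 900 naive ESC-specific sites and 1 of 332 sites in all 12 lists were next to a Hox gene. Counted within 50 kb of each cluster, members were 5 of 15 sites at Hoxb, 3 of 13 at Hoxa, 2 of 7 at Hoxc and 0 of 5 at Hoxd. None was nearest to Cdx1, Cdx2 or Cdx4, the caudal genes, which had 7 sites.

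The Nodal and BMP list, of TGFβ-family ligands and their regulators, also had 9 members (2.21%, against 0.524% of all sites), but only 1 of these lay within 50 kb of the gene start. The members were next to Grem1, Id4, Bmp2, Furin, Bmp7, Nog and Smad6, and 2 were next to Bmpr1b. All 3 members of the Notch and clock list (0.735%, against 0.286% of all sites), by contrast, were within 50 kb. They were next to Hes7, a repressor of the segmentation clock (1314 bp upstream), Lfng, a modifier of Notch (696 bp), and the ligand Dll3 (185 bp). Primitive streak and mesoderm genes had 8 members (1.96%, against 0.96%), next to Foxc1, Nkx1-2, Pdgfra, Mesp1, Rspo3, Evx1 and, with 2 sites, Cdh2.

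The WNT pathway list had 8 members (1.96%, against 1.45%), next to Wnt8a, Rspo3, Lgr6, Pygo1, Wnt5a and Lef1 and, with 2 sites, the feedback inhibitor Nkd1. The preneural and neural list had 6 (1.47%, against 0.873%), among them those next to Msx2, Nkx1-2, Msx1, Gbx2 and Otx1. FGF and ERK genes had 3 (Dusp4, Fgf8 and Fgf15), pluripotency genes 2 (Dppa3 and Nr5a2, 0.49% against 0.69%), and the retinoic acid and the Meis and Pbx lists 1 each (Rdh10 and Meis3). The endoderm list had 0. A nearest gene is a description of position, and regulation of it was not measured.

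**Figure D2:**
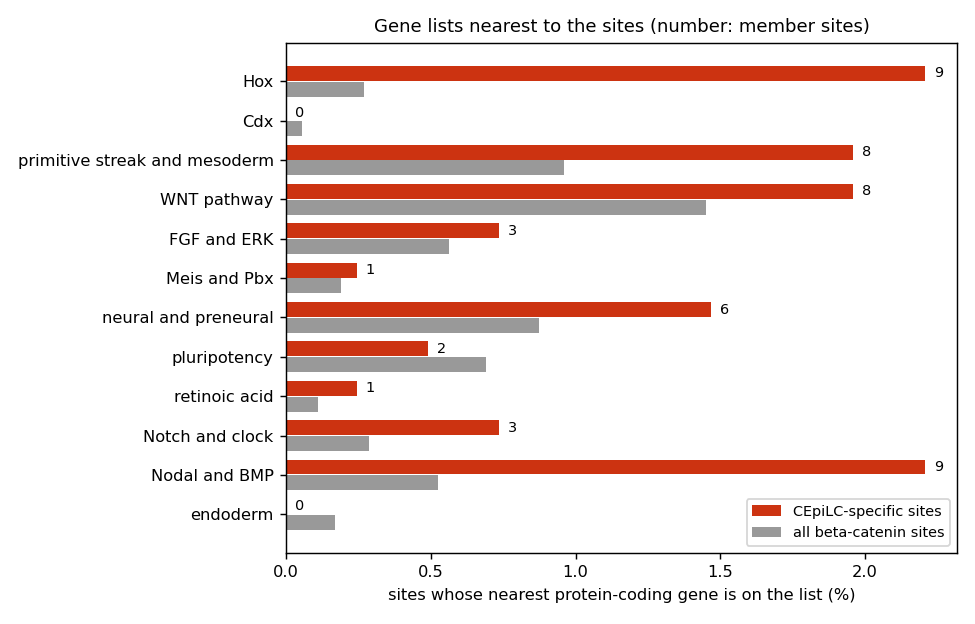
Share of sites whose nearest protein-coding gene is on each gene list (%), for CEpiLC-specific sites (red, number of member sites beside the bar) and all 12607 β-catenin sites (grey). Hox genes reach 2.21% of members and 0.27% of all sites.

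Among sites near Hox genes, the β-catenin folds in CEpiLC R1, R2 and R3 were 48.1, 24.5 and 19.8 at Hoxa4, 34.3, 24.3 and 17.5 at Hoxb4 site 2, and 24.2, 20.4 and 9.03 at Hoxb9. Naive ESC R1 had 32.7 at Hoxa4 and 27.5 at Hoxb4 site 2, within the CEpiLC range, while R2 and R3 had 4.41 and 7.86 at Hoxa4. At Hoxb9 all other libraries lay at or below 8.2, under the lowest CEpiLC value. At Hoxc10, by contrast, SOX2-ON R2 had 12.3, above all CEpiLC values (10.4, 10.2 and 11.4). Hes7, with 19, 21.7 and 19.4, had 4.6 in 1 naive ESC, 7.71 in 1 SOX2-ON, and 6.43 and 5.27 in 2 SOX2-OFF libraries. The Fgf8 site had 17.4, 21.5 and 16.1 in CEpiLCs, and 19.5 in SOX2-OFF R3, inside that range. Elsewhere a library of another condition also exceeded all CEpiLC values. Nkd1 site 2 had 22.0 in SOX2-ON R3 against at most 14.9 in CEpiLCs, and Bmpr1b site 1 had 16.2 in naive ESC R1 against at most 11.7. Fgf8 is a growth factor of the caudal epiblast.

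Whether SOX2 and the TCF and LEF proteins occupied these sites was asked from their own libraries, which had no part in the choice. Their lists were shortened in the same way, to 20000 peaks for SOX2, 4443 for LEF1, 1628 for TCF7L1 and 4134 for TCF7L2. In CEpiLCs, LEF1 had a peak at 64.7%, 65.2% and 67.9% of the members and SOX2 at 71.1%, 59.6% and 78.2%, in R1 to R3. TCF7L2 followed with 33.8%, 21.3% and 27.5%, and TCF7L1 with 14%, 21.3% and 23.5%. The order of proteins depends on list length, since the SOX2 lists were the longest.

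In the shortened lists of the other 3 conditions these shares were lower. LEF1 had a peak at 0.49% to 9.31% of members in the 9 other libraries, so the groups did not overlap, and TCF7L1 at 0% to 3.43% and TCF7L2 at 1.72% to 6.86%. SOX2 had one at 10.8% to 20.3% in 8 libraries and at 44.6% in SOX2-OFF R3. Over all β-catenin sites, the CEpiLC libraries had LEF1 at 23.6% to 24.7% and SOX2 at 33% to 40.9%, and SOX2 was as common in naive ESCs (30.5% to 41.8%). The 9 other libraries had LEF1 at 0.896% to 22.2% of all sites, so the groups did not overlap there either. TCF7L1 and TCF7L2 did overlap over all sites. TCF7L1 was at 6.71% to 11.6% in CEpiLCs and 4.43% to 12.9% in the others, and TCF7L2 at 8.81% to 12.5% and 5.07% to 13.1%. At the 2161 sites in 3 of 3 CEpiLC lists, the CEpiLC libraries had LEF1 at 79.3% to 84.9%, more than at the members. SOX2 was at 68.2% to 84.1% of them. The members moved by 5000 bp met at most 3.92% SOX2 and 1.23% LEF1 peaks. Naive ESC LEF1 R1 had peaks at only 0.896% of all sites, and CEpiLC TCF7L1 R1 had the fewest peaks of its target. The counts below are given with and without these 2 libraries.

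With all deposited peaks the conditions overlapped more, as they did for β-catenin. The mean share of members with a LEF1 peak was then 80.9% in CEpiLCs and 33% to 37.5% in the other conditions, where single libraries reached 56.4% in naive ESC R3, 54.9% in SOX2-ON R3 and 53.4% in SOX2-OFF R3, all below the lowest CEpiLC library (64.7%). For SOX2 it was 80.7% in CEpiLCs and 54.8% in SOX2-OFF cells, and SOX2-OFF R3 (77.9%) exceeded CEpiLC R2 (76.5%). The full lists held 4443 to 991719 peaks for LEF1 and 29298 to 907862 for SOX2. The members moved by 5000 bp met LEF1 in 0.735% to 3.19% of cases in CEpiLCs and in 0.245% to 34.6% in the other libraries. The highest were 33.3% in naive ESC R3 and 34.6% in SOX2-ON R3. For SOX2 the ranges were 5.15% to 10% and 2.94% to 37%. How much of the overlap came with such long lists was not tested. The mean for TCF7L1 was 56.7% in CEpiLCs, 51.3% in naive ESCs and 53.9% in SOX2-OFF cells, but the CEpiLC libraries differed widely. CEpiLC R1, whose whole list had 1628 peaks, had 14%, below 8 of the 9 libraries of the other conditions. CEpiLC R2 and R3 had 84.1% and 72.1%, above all 9. The full TCF7L1 lists held 1628 to 660387 peaks. The moved intervals met TCF7L1 in 0% to 13.7% of cases in CEpiLCs and in 0.245% to 27% in the others. TCF7L2 stood at 62.7% in CEpiLCs and at 21.2% to 25.4% in the others, but its CEpiLC R1 (35.3%) lay below SOX2-OFF R3 (44.1%).

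**Figure D3:**
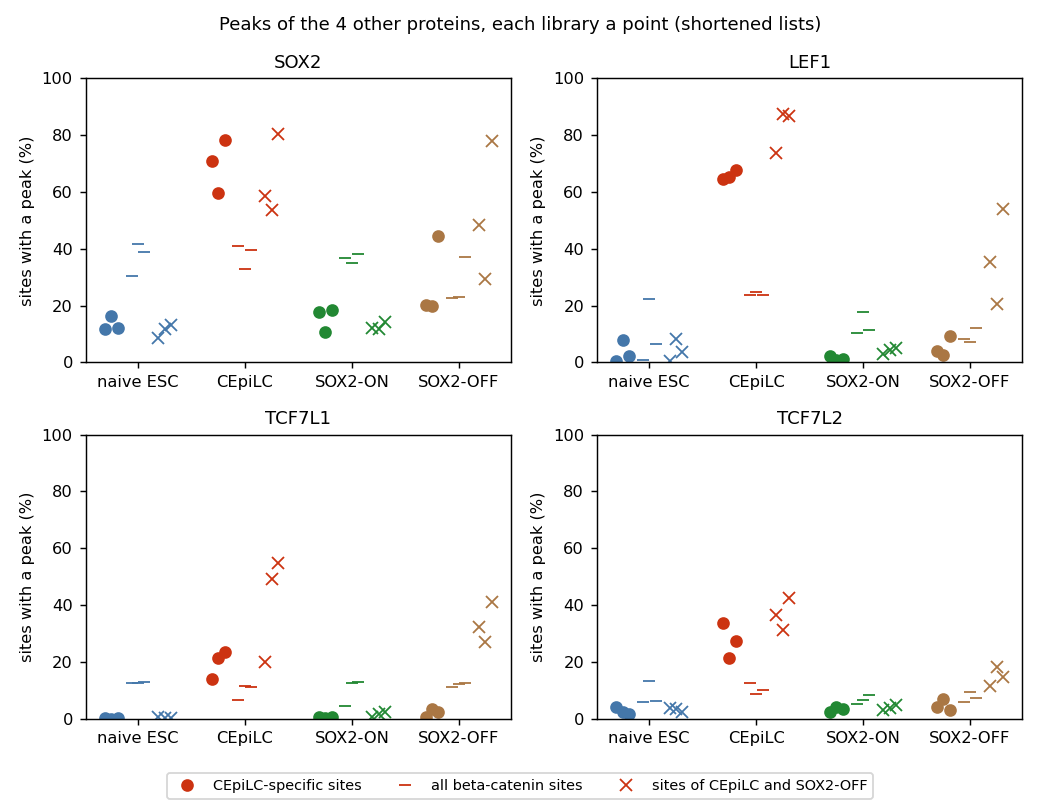
Share of sites with a peak (%) of SOX2, LEF1, TCF7L1 and TCF7L2, 1 point per library, by condition, for the 408 CEpiLC-specific sites (circles), all 12607 β-catenin sites (dashes) and the 598 sites of CEpiLC and SOX2-OFF (crosses). In these shortened lists the 3 CEpiLC circles of each protein lie above the 9 others. Among the dashes this holds for LEF1 alone.

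The comparison set in that plot consists of 598 sites with a β-catenin peak in 3 of 3 CEpiLC lists, in at least 2 of 3 SOX2-OFF lists and in at most 1 of 6 naive ESC and SOX2-ON lists. There LEF1 was found in 20.6% to 54% of sites in SOX2-OFF, and TCF7L1 in 27.1% to 41.1%, compared with 2.45% to 9.31% and 0.735% to 3.43% at the CEpiLC-specific sites. Sites specific to naive ESCs had LEF1 at 2.22% to 3.11% in the CEpiLC libraries. Summits lay close together: at members with both peaks, the LEF1 summit was a median of 27.5, 28 and 21 bp from the β-catenin summit in CEpiLC R1 to R3, and the SOX2 summit 40, 51 and 36 bp. They were no closer than over all β-catenin sites, where the medians were 26, 24 and 21 bp for LEF1 and 31, 41 and 30 bp for SOX2.

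With a peak in at least 2 of 3 CEpiLC lists as the criterion, SOX2 and LEF1 were both present at 200 members (49%), SOX2 without LEF1 at 88, LEF1 without SOX2 at 85 and neither at 35. Both were present at 15.2% of all sites and at 66% of the 2161 sites found in 3 of 3 CEpiLC lists. At least 1 of LEF1, TCF7L1 and TCF7L2 was present at 316 members (77.5%, against 25.6% of all sites and 89.9% of those 2161). The rule that chose the members, applied to the lists of another protein, held for LEF1 at 154 members (37.7%, against 6.23% of all sites), for SOX2 at 89 (21.8%, 2.72%), for TCF7L2 at 29 (7.11%, 1.4%) and for TCF7L1 at 14 (3.43%, 0.531%).

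Each site was then tested with limma on a rank score, the log2 of list length plus 1 over the rank of the strongest peak, which is 0 where the shortened list has no peak. CEpiLC was compared with the mean of the other 3 conditions, with Benjamini-Hochberg adjustment over all β-catenin sites that had a peak of the protein in at least 3 of 12 libraries. Where a member had 3 CEpiLC peaks and no other it passed this filter through CEpiLC alone and had to come out higher, so counts are given out of 408 and such sites are described without a p-value. The score measures the place of a peak within its own library and not the amount of protein bound.

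LEF1 was higher in CEpiLCs at 150 of the 408 members (36.8%) and at 8.52% of all 12607 sites. The 150 came from 196 members that could be tested, and 34% of the 3156 sites tested were called in this direction. SOX2 was higher at 179 members (43.9%, against 9.88% of all sites), with 264 tested and 16.2% of 7689 tested sites called. TCF7L2 was higher at 38 (9.31%, against 2.63%), with 62 tested and 20.4% of 1624 called, and TCF7L1 at 13 (3.19%, against 1.54%), with 21 tested and 7.73% of 2509 called. Of the 2161 sites in 3 of 3 CEpiLC lists, which include the members, LEF1 was called at 36.6%, SOX2 at 30.7%, TCF7L2 at 12.4% and TCF7L1 at 8.88%. At the 598 sites of CEpiLC and SOX2-OFF the shares were 47.2%, 24.2%, 14% and 13.2%. Only for SOX2 was the share of members above both.

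Many of these calls were fixed by the filter. At 105 of the 150 members called for LEF1 there was no LEF1 peak outside CEpiLC lists, as at 40 of 179 for SOX2, 12 of 13 for TCF7L1 and 19 of 38 for TCF7L2. Among members that also had a peak elsewhere, 45 of 87 tested were called for LEF1, 139 of 221 for SOX2, 1 of 7 for TCF7L1 and 19 of 43 for TCF7L2. With no filter on the number of libraries the counts of members were 122 for LEF1, 175 for SOX2, 12 for TCF7L1 and 27 for TCF7L2. No member was called as lower by limma, nor at an unadjusted p under 0.05 by limma or the exact permutation test. The filter and the choice of members leave little room for such calls, and nothing is read from their absence beside the 17.3% (SOX2), 2.47% (LEF1), 17.9% (TCF7L1) and 5.17% (TCF7L2) of all tested sites.

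Without naive ESC LEF1 R1 the LEF1 count was 148. At 74 members both SOX2 and LEF1 were higher, at 105 SOX2 without LEF1 and at 76 LEF1 without SOX2. At least 1 of the 4 proteins was higher at 265 members, and all 4 were at 3, next to Fam114a2, Necab2 and Hspb8. The last was named after its values were seen. These combinations of calls were counted at the members only, with no share over all sites, and include calls fixed by the filter.

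An exact permutation test over the 220 assignments of 12 libraries has a smallest p of 0.00909. It called LEF1 at 133 members, and at 20.3% of all β-catenin sites tested, but SOX2, TCF7L1 and TCF7L2 at 0 members. A member with 3 CEpiLC peaks and no other always reaches the smallest p, which for LEF1 passed after adjustment (0.0447). Of the members tested for LEF1, 109 were of this kind, so most of the 133 calls were fixed by the filter. After adjustment over all sites, the smallest p this test reached was 0.131 for SOX2, 0.248 for TCF7L1 and 0.0802 for TCF7L2. At an unadjusted p under 0.05 it had 170, 15 and 37 members for these 3 proteins. The TCF7L1 count rose to 36 without CEpiLC R1 and was 2 without replicate 2, so it rests on single libraries.

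Against SOX2-OFF cells alone, LEF1 was higher in CEpiLCs at 125 members (19.4% of the sites tested were called) and SOX2 at 107 (6.18%), and TCF7L2 was at 29 (10.8%) and TCF7L1 at 10 (1.83%). As shares of every site of a class, tested or not, SOX2 was called at 26.2% of the members, 4.18% of the 598 sites of CEpiLC and SOX2-OFF and 3.77% of all sites. For LEF1 the shares were 30.6%, 23.1% and 4.85%. For TCF7L2 they were 7.11%, 8.53% and 1.39%, and for TCF7L1 2.45%, 2.01% and 0.365%. These shares were not tested against each other. Against naive ESCs LEF1 was called at 138 members (33.8%, against 8.36% of all sites) and SOX2 at 167 (40.9%, against 10.3%). TCF7L2 was called at 35 (8.58%, against 2.55%) and TCF7L1 at 13 (3.19%, against 2.28%). Of the sites tested, 33.4%, 16.9%, 19.8% and 11.5% were called for these proteins in that order. Against SOX2-ON cells LEF1 was called at 144 members (35.3%, against 8.57% of all sites) and SOX2 at 161 (39.5%, against 9.99%). TCF7L2 was called at 35 (8.58%, against 2.44%) and TCF7L1 at 13 (3.19%, against 1.18%). Of the sites tested, 34.3%, 16.4%, 18.9% and 5.94% were called in the same order. These 3 contrasts share the CEpiLC libraries.

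Of the 12 strongest members, which were picked by β-catenin fold, 11 were called for LEF1 (36.8% of all 408 were) and 10 for SOX2 (43.9%), with 3 for TCF7L2 and 2 for TCF7L1. The counts of calls for this group and the groups below were made at the members only and include calls fixed by the filter. The groups were not tested against each other. At Hoxb4 site 1, the strongest, the LEF1 fold was 29.6, 36.5 and 27.3 in CEpiLC R1, R2 and R3, with 10.4 in naive ESC R2, 8.81 in SOX2-ON R1 and 13.5 in SOX2-OFF R3. The groups did not overlap, and the difference in rank score was 4.49 ± 0.69 (SE, limma adjusted p = 0.000462). SOX2 had a fold of 15.4, 15.3 and 12.2 there and TCF7L1 one of 9.52, 25.2 and 12.3 in the CEpiLC libraries, with no peak in the shortened lists of the other conditions. The differences in score were 3.65 ± 0.34 (SE) for SOX2 and 1.79 ± 0.30 for TCF7L1.

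Meis3 was called for SOX2 and LEF1, and had TCF7L1 in 2 of 3 CEpiLC lists. The SOX2 fold was 13.3, 17.2 and 12.8 and the LEF1 fold 15.9, 22.7 and 10.97 in CEpiLC R1 to R3, and neither had a peak in the other shortened lists. The SOX2 difference was 3.64 ± 0.34 and the LEF1 difference 2.80 ± 0.45. The Cep112 site, by contrast, was called for none of the 4 proteins. It had LEF1, TCF7L1 and TCF7L2 in CEpiLC R1 and R2 but not in R3, and SOX2 in R1 alone.

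Of the 9 Hox members, 6 (66.7%) were called for SOX2 and 6 for LEF1, against 43.9% and 36.8% of all members, with 1 for TCF7L1 and 0 for TCF7L2. At Hoxa4 SOX2 had a fold of 26.3, 16.1 and 20.2 in CEpiLC R1 to R3, 10.95 in naive ESC R1 and 8.6 in SOX2-OFF R3, a difference of 4.62 ± 0.52 (limma adjusted p = 0.000123). LEF1 there was 21.0, 14.0 and 12.7 in CEpiLCs and 16.9 in naive ESC R2, which lay inside the CEpiLC range (2.38 ± 0.80, limma adjusted p = 0.0361). Hoxc4 was called for LEF1, with 21.6, 19.9 and 17.1 in CEpiLCs and 10.1 in SOX2-OFF R1 (3.30 ± 0.48, limma adjusted p = 0.000327). Hoxb1 site 1 had LEF1 in the 3 CEpiLC lists and in 0 other shortened lists, with a difference of 2.26 ± 0.27. Hoxb1 site 2 was called for none.

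At Hoxa5 SOX2 passed (3.16 ± 0.32, limma adjusted p = 6.86e-05), and LEF1 was in the 3 CEpiLC lists alone with a difference of 0.88 ± 0.21. At Hoxb4 site 2 both passed, with LEF1 also in naive ESC R1 and R2. At Hoxb9 SOX2 passed (2.64 ± 0.47, limma adjusted p = 0.0019) but LEF1 did not (1.18 ± 0.51, limma adjusted p = 0.0916). Hoxc10 passed narrowly for SOX2 (1.91 ± 0.68, limma adjusted p = 0.0474), and the SOX2 fold of 4 libraries of other conditions exceeded the lowest CEpiLC value of 8.61.

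Among Notch and clock genes, SOX2 at Hes7 was 6.43, 15.4 and 18.7 in CEpiLC R1 to R3 and absent from the other shortened lists (a difference of 3.17 ± 0.50). LEF1 at Hes7 was likewise in the 3 CEpiLC lists alone, near their ends, with a difference of 0.33 ± 0.07. SOX2 also passed at Dll3 (2.26 ± 0.51, limma adjusted p = 0.00708), and Lfng passed for no protein. In the FGF list, Dusp4 and Fgf15, an FGF ligand, were called for both SOX2 and LEF1, and Fgf8 for none.

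Primitive streak and mesoderm members were called for SOX2 in 5 of 8 cases (62.5%, against 43.9% of all members) and for LEF1 in 1 (12.5%, against 36.8%). Mesp1, a regulator of early mesoderm, had a SOX2 fold of 20.1, 17.7 and 19.6 in CEpiLCs, with 9.21 and 11.4 in SOX2-OFF R1 and R3 (3.86 ± 0.64, limma adjusted p = 0.00131). LEF1 was found there in CEpiLC R3 alone. Cdh2, which encodes N-cadherin, had a site 552 bp from its start with TCF7L2 in the 3 CEpiLC lists and in 0 other shortened lists (a difference of 1.36 ± 0.17).

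The WNT list gave 2 calls each for SOX2 and LEF1 among 8 members, which is 25% and below the 43.9% and 36.8% of all members. At Wnt8a, a ligand of the primitive streak, SOX2 was 19.6, 23.3 and 23.2 in CEpiLCs and 6.25 to 14.9 in the 6 naive ESC and SOX2-OFF libraries, with no listed peak in SOX2-ON cells (3.69 ± 0.50, limma adjusted p = 0.0004). LEF1 and TCF7L1 were there in the 3 CEpiLC lists alone, with differences of 0.73 ± 0.17 and 0.84 ± 0.20. The member in an intron of Lef1 itself, the weakest of all 408 at a median β-catenin fold of 8.44, was called for SOX2 (2.98 ± 0.44, limma adjusted p = 0.000668). Pygo1, a nuclear partner of the β-catenin complex, was called for TCF7L2 alone (1.41 ± 0.45, limma adjusted p = 0.0386), but not against SOX2-OFF, whose 3 libraries all had it (0.17 ± 0.55, limma adjusted p = 0.981).

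In the Nodal and BMP list, 5 of 9 members were called for SOX2 and 4 for LEF1 (55.6% and 44.4%, against 43.9% and 36.8% of all members). Grem1, a BMP antagonist, had the largest SOX2 difference of the list, 5.94 ± 0.69 (limma adjusted p = 0.000168), although SOX2 also had peaks there in 8 of 9 libraries of the other conditions, the highest being 22.5 in SOX2-OFF R3 against a lowest CEpiLC value of 30.0. Bmp2, a ligand, had LEF1 in the 3 CEpiLC lists alone (a difference of 1.89 ± 0.23). Of the 6 neural and preneural members, 3 were called for SOX2, among them Gbx2, a hindbrain regulator (4.67 ± 0.71, limma adjusted p = 0.000778).

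The largest SOX2 differences of all members were next to Rbfox3, Gtf3a and Nkx2-2. At Rbfox3, which encodes a neuronal splicing factor, SOX2 was 42.7, 38.9 and 43.4 in CEpiLC R1 to R3 and had no peak in the other shortened lists (a difference of 7.57 ± 0.43). At Gtf3a it was 39.1, 51.2 and 47.5, against 6.05 to 9.32 in 5 other libraries (7.54 ± 0.44, limma adjusted p = 2.08e-06). At Nkx2-2, a regulator of ventral neural progenitors, CEpiLCs had 50.4, 44.6 and 62.2 and naive ESC R2 29.6, and the groups did not overlap (6.84 ± 1.01, limma adjusted p = 0.000631).

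For LEF1 the largest were Hoxb4 site 1, Arid1b and Sall3. Sall3, a zinc-finger factor, had a LEF1 fold of 16.9, 24.4 and 24.8 in CEpiLCs and no peak in the other shortened lists (a difference of 3.68 ± 0.31), whereas Arid1b, a chromatin remodelling subunit, also had LEF1 in 5 other libraries, at up to 15.5 (3.71 ± 0.79, limma adjusted p = 0.00353). For TCF7L1 they were Ints7 (1.89 ± 0.21, with TCF7L1 in the 3 CEpiLC lists alone), Hoxb4 site 1 and Necab2. For TCF7L2 they were Opa1 (2.26 ± 0.34, limma adjusted p = 0.000644), Spen and Pkm site 2, the last 79 bp from the start of a gene for pyruvate kinase.

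**Figure D4:**
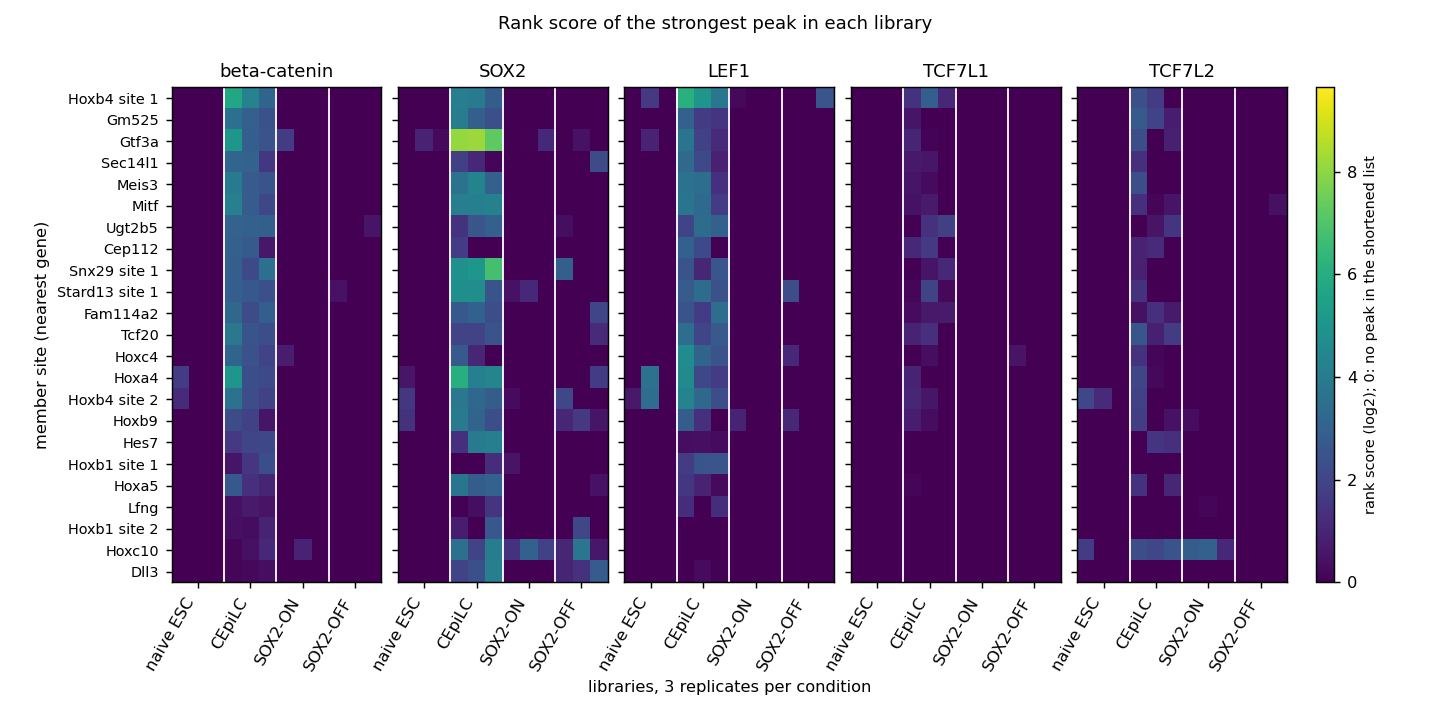
Rank score (log2 scale, colour; 0 where the shortened list has no peak) of β-catenin, SOX2, LEF1, TCF7L1 and TCF7L2 in 12 libraries each, for 23 sites (the 12 strongest members and those of the Hox and the Notch and clock lists). Hoxb4 site 1 has LEF1 in the 3 CEpiLC libraries and in 3 others, and Hes7 has SOX2 in the shortened CEpiLC lists alone.

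Among the members, TCF7L2 was called at a larger share near gene starts, although most of its 38 calls lay further away. Of the 49 members within 1 kb of a start, 15 (30.6%) were called for TCF7L2, compared with 23 of the 359 further away (6.41%). For LEF1 the shares were 40.8% and 36.2%, and for SOX2 53.1% and 42.6%. Differences between groups of members were not tested, and 19 of the 38 TCF7L2 calls were fixed by the filter. The same shares were not counted over all β-catenin sites, so nothing particular to the members is read from them.

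Short sequences known to be bound by factors of this lineage were counted on both strands within 100 bp of the summit. For sites without a CEpiLC peak this was the strongest summit of any library. The TCF sequence (CTTTGAA or CTTTGAT) occurred at 179 members (43.9%), the same share as at all β-catenin sites (43.5%) and at naive ESC-specific sites (43.9%), and below that at the sites of CEpiLC and SOX2-OFF (62.2%) or in all 12 lists (70.8%). Windows 5000 bp away had it in 7.72% of cases. The SOX sequence (CATTGT or CTTTGT) occurred at 27% of members, close to their flanks (26.1%) and below all sites (44.4%) and SOX2-ON-specific sites (74.1%).

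The CDX sequence (TTTATTG or TTTATGG) went the other way, with 54 members (13.2%) against 6.66% of all sites, 6% of naive ESC-specific sites, 4.35% of the sites of CEpiLC and SOX2-OFF and 6.99% of flanks. Within 50 bp of the summit it was found at 42 members (10.3%) and 3.42% of all sites. The share was 7.69% when replicate 1 was left out of the choice of sites, and 8.32% of the 1154 sites chosen with up to 10000 peaks per list, so it depends on how the sites were chosen. The TCF share, likewise, was 27.9% of the 280 sites chosen with all deposited peaks. Both the TCF and the CDX sequence were present at 28 members (6.86%, against 2.67% of all sites). Of 32851 RefSeq promoters on GRCm38, each running from 250 bases before to 50 after a gene start, 7.2% held the CDX and 8.65% the TCF sequence. A match is a description of letters and not evidence of binding, and the absence of one says only that these letters are not in the window.

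**Figure D5:**
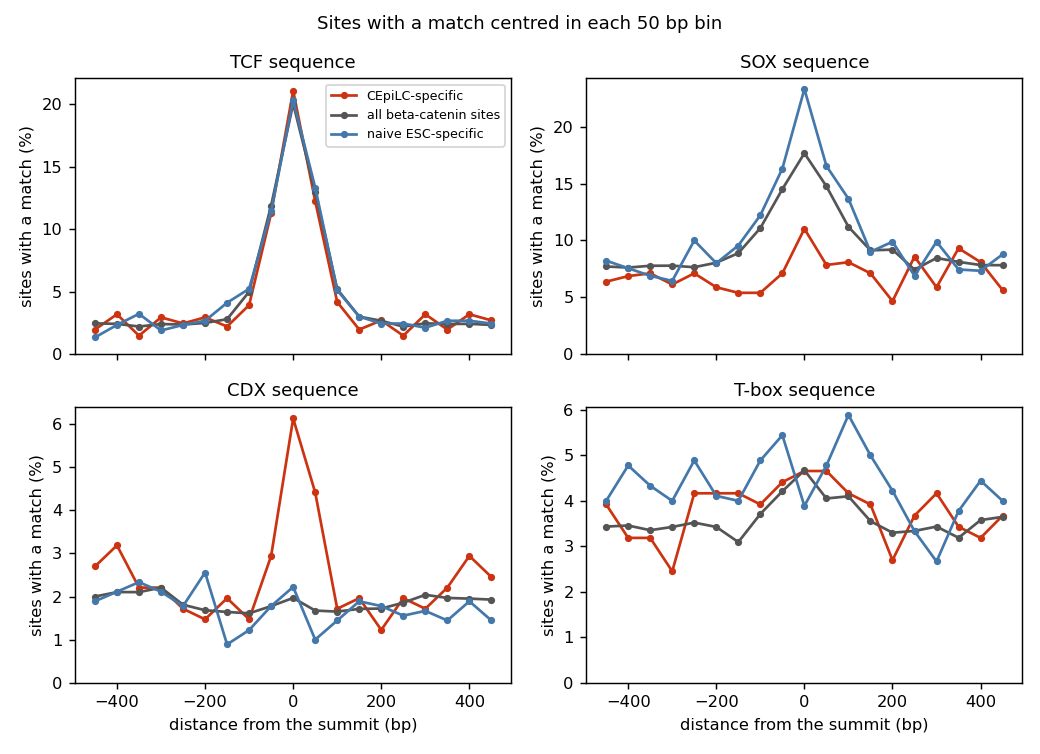
Share of sites (%) with a TCF, SOX, CDX or T-box sequence in each 50 bp bin around the summit (distance in bp on the x axis), for CEpiLC-specific sites (red), all sites (grey) and naive ESC-specific sites (blue). The summit is the strongest of the CEpiLC libraries, or of any library where a site has no CEpiLC peak. In the bin at the summit the CDX sequence is at 6.13% of members and 1.97% of all sites, and the SOX sequence at 11.03% and 17.7%.

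The T-box sequence (GGTGTG) was at 16.7% of members and 15.7% of all sites, and the ZIC sequence (CAGCAGG) at 18.9% and 17.9%. The octamer (ATGCAAAT) was at 6 members (1.47%, against 4.48%), the FOXH1 sequence (AATCCACA or AATACACA) at 2 (0.49%, 2.18%) and the GATA sequence (AGATAA) at 43 (10.5%, 14.9%). The members were richer in G and C, with a median of 51.7% against 47.3% for all sites, and of 62.2% within 1 kb of a start. GC content moves with the frequency of AT-rich sequences, and its part in these shares was not tested.

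Sequence and occupancy varied together among the members. Of the 207 members with SOX2 in 3 of 3 CEpiLC lists, 27.5% held the TCF sequence, compared with 78.4% of the 51 members with SOX2 in none. For LEF1 the order was opposite, with 54.4% of the 169 members that had it in 3 of 3 lists and 27.3% of the 55 that had it in none. The other sites found in 3 of 3 CEpiLC lists had the same directions, with 56.2% and 80.7% for SOX2 and 71.4% and 26.4% for LEF1. Read the other way, SOX2 was called as higher in CEpiLCs at 47 of 179 members with the TCF sequence (26.3%) and at 132 of 229 without it (57.6%), and LEF1 at 82 (45.8%) and 68 (29.7%). SOX2 was called at 32 of the 54 members with the CDX sequence (59.3%) and at 41.5% of those without, and at 60.9% of the 110 with the SOX sequence and 37.6% of those without. These calls were counted at the members only and include those fixed by the filter, and the differences were not tested.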

How the data were processed

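ChIP-seq peak lists of 60 libraries (5 proteins, 4 conditions, 3 replicates) were used, together with the GRCm38 genome and basic GENCODE vM21 genes. Per the study's methods, the authors aligned reads to mm10 with BWA and called narrow peaks per library with MACS at a q-value threshold. The deposited lists give fold over input as a ratio, and −log10 of the p-value and of the q-value. Read depth was not used here.

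Lists were ranked by fold and shortened to the shortest list of their protein (at most 20000 peaks). Rank scores were fitted with limma 3.58.1 in R 4.3.3 over sites with a peak in at least 3 of 12 libraries, without a replicate term, and adjusted by Benjamini-Hochberg at 0.05. Counts were made in Python 3.11.15 with pandas 2.3.3 and scipy 1.17.1, and the code was tested on simulated data. Equal list lengths remove differences in the total number of peaks, so a score reflects rank and not amount. The precision of each value is set by 3 libraries per condition.

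Named members were the 12 with the highest median CEpiLC fold, those nearest to a listed gene, and the 3 with the largest difference past the threshold for each protein. The values of 1 such member are not reported here. The members, gene lists and sequences searched were chosen with earlier results of these data known. Alternatives covered list length, ranking, filters, windows and left-out libraries.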

Additional observations from a re-analysis of the deposited data

How the results depend on the processing

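Of 104 alternatives, 39 moved a value by over 1.5 times (counts) or past the spread of replicates or the 95% interval (shares). The other 65 stayed inside these wide limits, which do not show that the same sites were found. The number of sites chosen was 230 with at most 2000 peaks per list, 1154 with up to 10000, 237 when 0 of 9 other lists was required and 1 when 0 of 9 other full lists was. All deposited peaks gave 280 sites, of which only 11 overlap the 408. Without 1 replicate number it was 596 to 949, and without SOX2-OFF R2 it was 457, a library picked after seeing the data. With at most 2000 peaks per list, SOX2 was called at 51 members, LEF1 at 59 and TCF7L2 at 12, and with at most 1000 TCF7L1 at 2. With up to 10000, TCF7L1 was called at 44 and TCF7L2 at 60. The exact permutation test called 0 for SOX2, TCF7L1 and TCF7L2. Leaving out a replicate number gave 127 to 133 for SOX2, 138 to 147 for LEF1, 2 to 31 for TCF7L1 and 32 to 45 for TCF7L2, and leaving out CEpiLC R1, also picked after seeing the data, gave 36 for TCF7L1. Likewise, TCF7L2 was called at 37 without SOX2-OFF R2, its shortest list.

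With all deposited peaks, the mean share of members with a CEpiLC peak was 80.7% for SOX2, 80.9% for LEF1, 56.7% for TCF7L1 and 62.7% for TCF7L2, compared with 69.6%, 65.9%, 19.6% and 27.5%. The other conditions rose as well, TCF7L1 to 51.3% in naive ESCs and 53.9% in SOX2-OFF cells. With 50 and 250 bp on each side of the summit, the TCF sequence was at 33.6% and 51.5%, SOX at 18.6% and 50.5%, T-box at 7.84% and 33.6%, GATA at 5.39% and 22.5% and ZIC at 12.5% and 28.4%, and with 250 bp CDX was at 20.3% and FOXH1 at 3.92%. Without 1 replicate number the shares were 41.8% to 49.3% for TCF, 7.69% to 13% for CDX and 12.2% to 14.9% for GATA. Members over 10 kb from a start were 49.8% with all transcripts and 65.9% to 73.7% without 1 replicate number. Wider windows and longer lists hold more sequence and more peaks, and otherwise the cause was not tested.

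With the replicate number as a block, SOX2 was called at 175 members, LEF1 at 150, TCF7L1 at 13 and TCF7L2 at 39. Deviations from the condition mean correlated above 0.1 in 4, 10, 7 and 17 of 18 same-numbered pairs for SOX2, LEF1, TCF7L1 and TCF7L2. Of 12 libraries, 11, 10, 7 and 8 correlated best with those of their own number, so the numbers carry some shared structure. The labels name no shared batch, and the numbers were not taken as pairing in the main fit. The counts with a block are those above.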
